A study of Mus musculus with 7 samples.

Results

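Lung CD4 T cells that carried transcripts of Icos, Ctla4, Cxcr6 or Maf were described in mice with and without inducible loss of Smad4. Members were chosen from the counts of unique molecular identifiers (UMIs, 1 per captured transcript) in each barcode. A barcode needed at least 600 UMIs, at least 300 genes and at most 20% mitochondrial UMIs. It also needed at least 2 UMIs over Cd3d, Cd3e and Cd3g, at least 1 UMI of Cd4, and at least 2 UMIs over Icos, Ctla4, Cxcr6 and Maf. It had to hold no Cd8a, Cd8b1, Foxp3 or Trdc UMI, at most 1 UMI over Cd79a and Ms4a1, and fewer than 20 over S100a8 and S100a9. The rule found 1840 of 50955 kept cells (3.61%), called gated CD4 T cells here. They made up 43.3% of the 4250 conventional CD4 T cells, which met every condition other than that on Icos, Ctla4, Cxcr6 and Maf. The 1490 conventional CD4 T cells with none of those 4 transcripts are called resting-like.

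The study set Smad4fl/fl mice (n = 3), floxed littermates without Cre, against Smad4iko mice (n = 4), which are Smad4fl/fl;Rosa26-creERT2. Both genotypes received tamoxifen at 75 mg/kg in 5 intraperitoneal injections from postnatal day 21 to day 26. Peripheral lung was taken when the mice were 8 weeks old. CreERT2 is driven from Rosa26, a locus active in nearly all cells, so the deletion was not limited to T cells and the gated cells sat in a lung in which other cells had also been exposed to Cre. Each mouse gave 1 droplet-based 3' library, with 46449235 to 66557262 UMIs per library. The gated cells held 13842981 UMIs in all, 1262761 to 4012142 per library. The median gated cell had 5205 to 7440.5 UMIs, depending on the library. Libraries shared 12 to 29 barcode sequences per pair, and 1 such barcode was among the gated cells.

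CD4 T cells leave the thymus as naive cells that recirculate through lymph nodes, guided by homing receptors such as CCR7. After meeting antigen they acquire costimulatory receptors such as ICOS and inhibitory ones such as CTLA-4, and a part of them stays in tissues such as the lung as effector or memory cells with helper programmes. TGF-beta signals through its receptors to SMAD2 and SMAD3, which pair with SMAD4 to enter the nucleus. In T cells this pathway is known for restraining activation and effector differentiation and for its part in regulatory, Th17 and tissue-resident fates.

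The gate was checked against genes it did not use, and the label of activated or memory cells held for only a part of the members. After thinning to 1500 UMIs per cell, Ccr7, the lymph node homing receptor of naive T cells, was detected in 53.9% of gated and 60.7% of resting-like cells. Of the gated cells, 627 (34.1%) passed on Icos alone. Icos was seen in 88.6% of members, Ctla4 in 43.4%, Maf in 41.6% and Cxcr6 in 12.2%. The cells are therefore named by their gate in what follows.

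Members just inside the gate had detection shares close to those of cells just outside it. Thinning was used so that depth did not set detection, and cells were grouped by their summed Icos, Ctla4, Cxcr6 and Maf UMIs. S100a4, a calcium-binding protein of effector and memory T cells, was detected in 0.810% of cells with a sum of 0, 2.50% with a sum of 1 (920 cells, just outside the gate) and 3.03% with a sum of 2 (564 cells, just inside). It was detected in 6.63% at sums of 3 to 4, 19.7% at sums of 5 to 9 and 49.6% at sums of 10 or more. Cd44, an adhesion receptor of antigen-experienced T cells, went from 6.52% just outside and 6.77% just inside to 27.4% in the highest group. Ccr7 went the other way only in the upper groups, from 64.3% just outside and 64.5% just inside to 31.9% in the highest. Lef1, a transcription factor of naive T cells, stood at 63.7%, 62.0% and 28.2% in the same 3 groups. These shares were a description, since the rule chose cells of the same libraries by their transcripts. A sum of at least 5 was reached by 763 members (41.5%), by 31.6% to 40.7% in 5 libraries, 49.3% in Smad4iko 3 and 56.5% in Smad4iko 4.

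**Figure D1:**
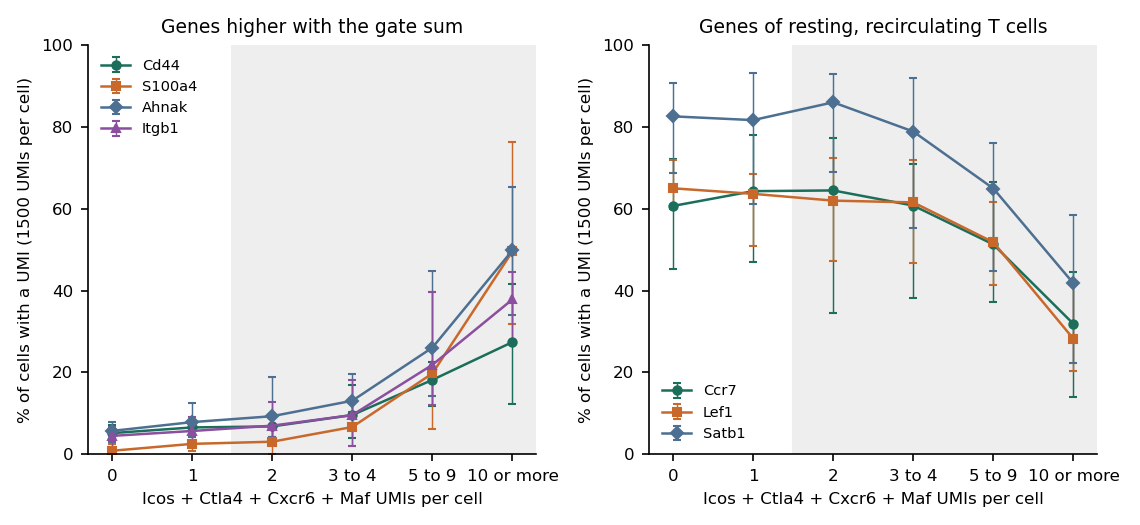
Percent of conventional CD4 T cells with at least 1 UMI of each gene after thinning to 1500 UMIs (vertical axis) by the cell's summed Icos, Ctla4, Cxcr6 and Maf UMIs (horizontal axis); points pool all libraries, bars run from the lowest to the highest library, and the grey area is inside the gate. S100a4, Cd44 and other effector genes climb mainly above a sum of 4 (S100a4 6.63% at 3 to 4 and 19.7% at 5 to 9), while Ccr7 is as frequent just inside the gate (64.5%) as just outside (64.3%).

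Levels are given as CPM, the UMIs of a gene scaled to the total UMIs of the gated cells in a library. Genes of the rule are described and not tested. Icos was at 399, 472 and 450 CPM in Smad4fl/fl 1 to 3 and at 393, 505, 475 and 483 CPM in Smad4iko 1 to 4, so the groups overlapped. Ctla4 was at 183, 145 and 153 CPM against 141, 151, 298 and 283 CPM, with Smad4iko 3 and 4 above all other libraries. Maf, a transcription factor of several helper fates, was at 146, 208 and 149 CPM against 218, 196, 220 and 411 CPM, with Smad4iko 4 far above the rest. Cxcr6, a chemokine receptor of tissue-resident T cells, was at 66.6, 41.3 and 42.1 CPM against 33.8, 43.6, 30.7 and 79.1 CPM. Cd4 itself stayed between 230 and 283 CPM in all 7 libraries.

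Set against the resting-like cells of the same libraries, the gated cells are described by the genes with the largest differences, with no test. These levels include the barcodes with markers of other cell classes that are described next. S100a4 was at 603 CPM in gated and 39.4 CPM in resting-like cells, a mean within-library log2 difference of 4.98 ± 2.09 (SD, n = 7 libraries). Ikzf2, which encodes Helios and is known from regulatory T cells, was at 106 CPM against 5.77 CPM, and it was higher in gated cells in 7 of 7 libraries. Among Foxp3-positive cells chosen by the same rule (268 cells) Ikzf2 ranged from 728 to 1431 CPM per library, and in the gated cells from 77.8 to 142.8 CPM. Foxp3 was absent from the gated cells by the rule, and whether some are regulatory cells without a captured Foxp3 transcript was not tested. Il2ra, the high-affinity IL-2 receptor chain, was at 13.3 to 36.5 CPM in gated and 97.1 to 333 CPM in Foxp3-positive cells.

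The other leading genes of the gated cells were S100a6 (572 against 52.3 CPM), Il2rb, the IL-2 and IL-15 receptor beta chain (117 against 18.5 CPM), and Lgals1, which encodes galectin-1 (591 against 97.7 CPM). Rora, a nuclear receptor of helper and innate-like lymphocytes, was at 267 against 50.1 CPM. Itgb1, an integrin chain of memory T cells, was at 249 against 62.8 CPM, and Rgs1, a regulator of chemokine receptor signalling, at 142 against 32.8 CPM. Il18r1, the IL-18 receptor, was at 78.7 against 18.3 CPM. The genes lower in gated cells differed less. Lef1 was at 512 against 715 CPM, Bach2, a repressor that holds T cells in a resting state, at 83.5 against 120 CPM, Itga6 at 177 against 257 CPM and Sox4 at 63.3 against 87.7 CPM. Gated cells were also deeper than resting-like ones (median 4471 to 6625.5 UMIs per library in the latter).

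Before further results, barcodes that carried markers of another cell class were counted. The classes used were endothelium, epithelium, fibroblasts, alveolar macrophages, monocytes and dendritic cells, B cells, NK cells, neutrophils and platelets. Erythroid, NKT, group 2 innate lymphoid, gamma-delta and regulatory T cell markers were not used. At least 10 UMIs over the markers of any 1 of the classes used were found in 168 members (24, 23 and 41 in Smad4fl/fl 1 to 3 and 24, 17, 21 and 18 in Smad4iko 1 to 4). They had a median of 14297.5 UMIs and held 18.8% of all gated UMIs, and 40 of them were among the 44 members that Scrublet marked as doublets. The endothelial markers together reached 719, 700 and 161 CPM in Smad4fl/fl 1 to 3 and 138, 71.3, 104 and 137 CPM in Smad4iko 1 to 4. The 2 highest libraries were both Smad4fl/fl, and 68.0% of these UMIs lay in 17 barcodes. Without the 168 barcodes the sum was 143, 83.0 and 94.5 CPM against 86.0, 75.7, 66.8 and 89.1 CPM. Alveolar macrophage markers lay the other way, at 73.5, 138 and 693 CPM against 628, 644, 1063 and 852 CPM, and at 14.5 to 80.0 CPM without those barcodes.

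**Figure D2:**
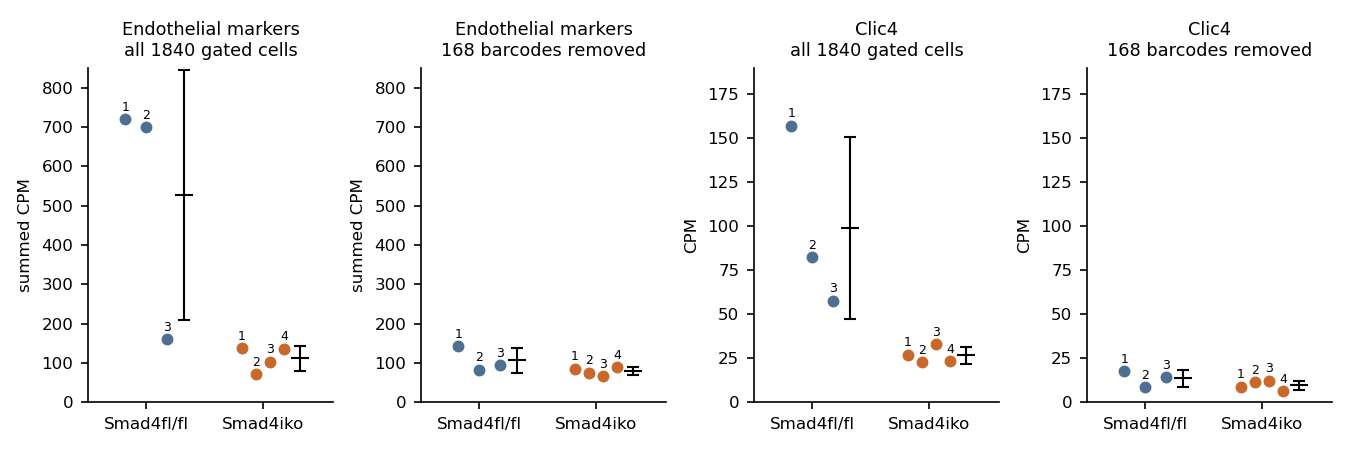
Summed CPM of the endothelial markers and CPM of Clic4 in the gated cells (vertical axes, linear from 0) in each library, with all members and without the 168 barcodes that carry at least 10 UMIs of another class's markers; points are libraries, lines the mean and SD of each genotype. With all members Smad4fl/fl 1 and 2 stand at 719 and 700 CPM and the other 5 libraries at 71.3 to 161 CPM, and without the 168 barcodes all 7 lie between 66.8 and 143 CPM.

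Other marker sums were uneven too. Erythroid markers stood at 8.54, 472 and 569 CPM in Smad4fl/fl 1 to 3 and at 3045, 21.4, 9753 and 1935 CPM in Smad4iko 1 to 4, led by the haemoglobin genes Hbb-bs and Hba-a1. Neutrophil markers ranged from 15.4 to 79.5 CPM in Smad4fl/fl and from 124 to 462 CPM in Smad4iko, monocyte and dendritic cell markers from 642 to 2163 CPM over all libraries, B cell markers from 62.2 to 240 CPM and fibroblast markers from 3.19 to 499 CPM. NK markers were at 19.4, 93.8 and 275 CPM against 37.4, 21.4, 37.6 and 240 CPM. Epithelial markers ranged from 30.9 to 974 CPM, group 2 innate lymphoid markers from 73.3 to 181 CPM, NKT markers from 93.3 to 178 CPM, gamma-delta T cell markers from 5.41 to 47.6 CPM and platelet markers from 0.45 to 19.4 CPM. The T cell markers summed to 4027 to 4560 CPM, and the CD8 markers were at 0 because the rule removed them.

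The remaining 1672 members fell into 5 clusters, built from 1000 variable genes without batch integration. Cluster 1 (830 cells, 49.6%) was led by Tubb2a, Sox4 and Satb1, genes of recent thymic emigrants and naive cells. Ccr7 was found in 96.4% of its cells and Cd44 in 12.4%. Cluster 2 (512 cells, 30.6%) carried S100a4 at 1629 CPM and Maf at 528 CPM, with Cd44 in 66.0%, Ikzf2 in 39.1%, Gata3 in 33.8%, Cxcr3 in 25.4% and Ccr6 in 13.9% of cells. Lgals1 stood at 1188 CPM and Vim at 963 CPM in it. It held 23.8%, 28.7% and 25.6% of the clustered cells of Smad4fl/fl 1 to 3 and 25.4%, 25.5%, 39.2% and 51.9% of those of Smad4iko 1 to 4.

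Cluster 3 (202 cells, 12.1%) came almost wholly from 2 libraries, with 99 cells from Smad4iko 3, 85 from Smad4iko 4 and at most 7 from any other. Haemoglobin genes, Jun, Junb and Ifi206 led it, and Lef1 was found in 93.1% of its cells. Cluster 1 held 57.9% to 68.2% of the clustered cells in 5 libraries but 1.55% and 1.42% in Smad4iko 3 and 4. Cluster sizes were therefore not compared between genotypes, shares that rest on these 2 libraries are given with and without them, and the gene test was also fitted with a covariate for them. Cluster 4 (108 cells, 6.46%; 4.0% to 12.1% of each library) was led by Zbtb16, the PLZF transcription factor of innate-like T cells, with Plac8 (588 CPM), Il4 in 34.3% and Rora in 89.8% of cells. Its leading genes also include Trgc4 and Trgc1, gamma T cell receptor constant genes, so it was left without a name. Cluster 5 (20 cells) was led by the cell cycle genes Top2a and Mki67 and had a median of 18974 UMIs per cell.

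**Figure D3:**
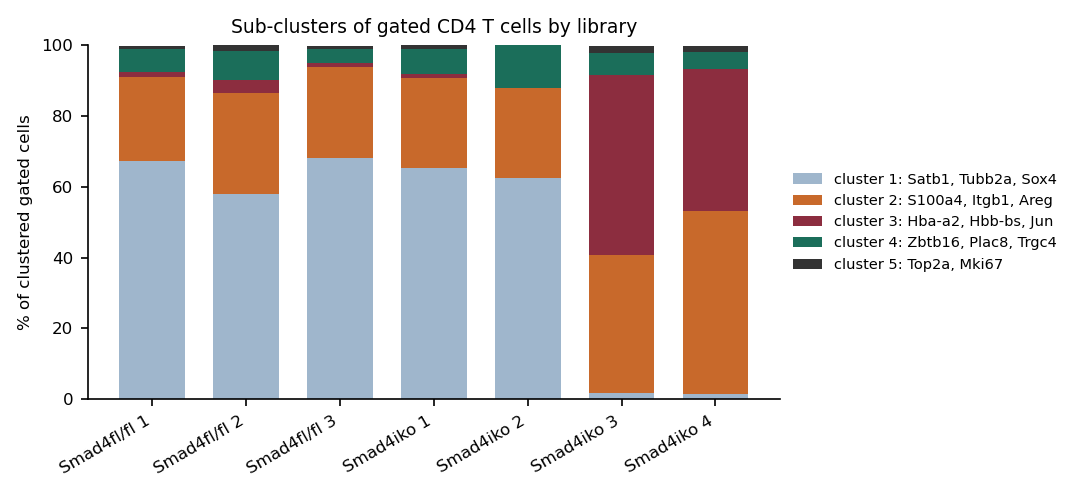
Percent of each library's clustered gated cells (vertical axis) in the 5 clusters, for 1672 members in 7 libraries. Cluster 1 makes up 57.9% to 68.2% of 5 libraries and under 2% of Smad4iko 3 and 4, where cluster 3 holds 51.0% and 40.1%.

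The first comparison asked whether the genotypes differed in how many CD4 T cells passed the gate. Gated cells were 43.3%, 35.9% and 51.4% of conventional CD4 T cells in Smad4fl/fl 1 to 3 and 47.7%, 40.8%, 40.9% and 38.2% in Smad4iko 1 to 4. The means were 43.5% ± 7.78 (SD, n = 3) and 41.9% ± 4.05 (SD, n = 4), a difference of -1.65 percentage points (2-sided exact permutation test, p = 0.686; the smallest p that the 35 splits allow is 0.0286). The Smad4iko values lay inside the Smad4fl/fl range. As a share of all kept cells the gated cells made up 2.80%, 3.13% and 6.47% against 4.53%, 2.70%, 2.56% and 3.38%. That was 4.13% ± 2.03 (SD, n = 3) against 3.29% ± 0.903 (SD, n = 4), a difference of -0.843 points (exact permutation test, p = 0.571). Both differences turned positive without Smad4fl/fl 3, the library with the most gated cells (2.30 and 0.327 points).

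Helper programmes were compared as the share of thinned gated cells with at least 1 UMI of their defining genes. Residency genes (Cd69, Itgae, Itga1, Zfp683), which mark T cells held in tissue, were found in 7.59%, 10.2% and 10.3% of cells in Smad4fl/fl 1 to 3 and in 8.78%, 8.24%, 17.7% and 27.9% in Smad4iko 1 to 4. The high values were in Smad4iko 3 and 4 alone, and the other 2 Smad4iko libraries lay within the Smad4fl/fl range. The means were 9.37% ± 1.54 (SD, n = 3) and 15.7% ± 9.26 (SD, n = 4), which did not pass the exact permutation test (p = 0.457, 0.617 after Benjamini-Hochberg adjustment over 6 programmes, of which 4 are given). Cd69 supplied most of this share, with 11.3% of all thinned gated cells against 0.925% for Itgae. Without Smad4iko 3 and 4 the mean difference turned to -0.858 points. Among members with a gate sum of at least 5 alone it was 10.9 points. The shares there were 8.14%, 7.04% and 10.6% in Smad4fl/fl 1 to 3 and 11.2%, 10.8%, 19.8% and 36.2% in Smad4iko 1 to 4. In that subset every Smad4iko library lay above every Smad4fl/fl library (exact permutation test, p = 0.0571, the smallest it can give, adjusted 0.343). Smad4iko 1 and 2 (11.2% and 10.8%) did so only narrowly, with Smad4fl/fl 3 at 10.6%. This subset was not planned and was added after seeing the data.

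Th1 genes (Tbx21, Ifng, Cxcr3) stood at 7.12% ± 0.795 (SD, n = 3) against 5.35% ± 2.84 (SD, n = 4). Th2 genes (Gata3, Il4, Il5, Il13, Il1rl1) stood at 9.33% ± 1.62 (SD, n = 3) against 10.6% ± 2.47 (SD, n = 4), and follicular helper genes (Cxcr5, Bcl6, Il21, Tox2) at 4.47% ± 1.79 (SD, n = 3) against 4.57% ± 1.37 (SD, n = 4). None passed the exact permutation test (adjusted p = 0.617, 0.617 and 1). The same genes were found in 0.270% (Th1), 3.64% (Th2), 2.43% (follicular helper) and 7.83% (residency) of resting-like cells. Free RNA gives UMIs to cells that do not express a gene. B cells, which themselves use Cxcr5, Bcl6 and Cd69, had a follicular helper gene in 15.1% and a residency gene in 26.7% of cells. Without thinning, Th2 genes were in 22.6%, 24.0% and 23.8% of gated cells in Smad4fl/fl against 29.4%, 28.0%, 24.2% and 35.2% in Smad4iko. All Smad4iko values were then above the Smad4fl/fl values (exact permutation test, p = 0.0571, the smallest it can give, adjusted 0.171).

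**Figure D4:**
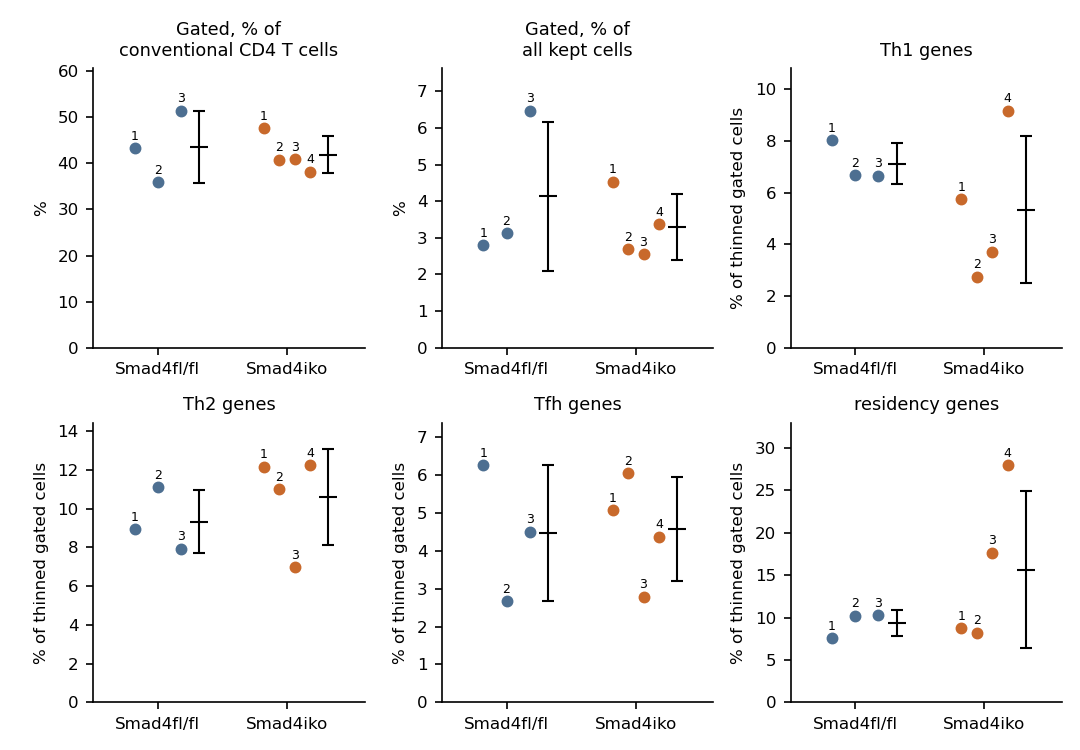
Gated cells as percent of conventional CD4 T cells and of all kept cells, and percent of thinned gated cells with a UMI of each programme's genes (vertical axes, linear), 1 point per library, with the mean and SD of Smad4fl/fl (n = 3) and Smad4iko (n = 4). The residency points of Smad4iko 3 and 4 (17.7% and 27.9%) sit above the other 5 libraries.

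UMIs were then summed over the gated cells of each library and tested gene by gene. In such sums fewer cells with a transcript and less transcript per cell cannot be told apart. Smad4, the floxed gene, was at 124, 123 and 139 CPM in Smad4fl/fl 1 to 3 and at 102, 86.3, 58.2 and 65.1 CPM in Smad4iko 1 to 4. Every Smad4iko library was below every Smad4fl/fl library, and Smad4iko 3 and 4 were the lowest. The means were 128 ± 8.78 CPM (SD, n = 3) and 78.0 ± 20.1 CPM (SD, n = 4), a log2 difference of -0.65 (SE 0.19), which did not pass the edgeR quasi-likelihood test (Benjamini-Hochberg adjusted p = 0.656 over all genes). With a covariate for Smad4iko 3 and 4 the log2 difference of Smad4 was -0.39. Counting was at the 3' end and the labels do not say which exon is floxed, so the remaining Smad4 UMIs do not measure the deletion. In resting-like cells Smad4 was at 139, 152 and 153 CPM against 78.4, 100, 69.3 and 76.6 CPM, a log2 difference of -0.74 (SE 0.16). The difference between these 2 effects was 0.06 (SE 0.18; limma, adjusted p = 0.992). In Foxp3-positive cells Smad4 was at 67.2, 71.6 and 76.3 CPM against 50.6, 40.2, 63.1 and 54.8 CPM, below the gated cells of the same library in all but Smad4iko 3.

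Over all genes the edgeR test called 0 of 8823 (0.0%) at an adjusted p of 0.05, with a smallest adjusted p of 0.549. At an unadjusted p under 0.05 there were 565 genes (6.4%). DESeq2 called 54 of 17441 genes (0.31%), 9 higher and 45 lower in Smad4iko, and edgeR without Smad4fl/fl 3 called 174 of 9239 (1.88%), 22 higher and 152 lower. The genes called by DESeq2 had a median of 93.8% of their UMIs in the 168 barcodes with another class's markers, and those called without Smad4fl/fl 3 had 92.9%. For DESeq2 the median was 94.3% for the 45 lower genes but 19.8% for the 9 higher ones (7.71% to 96.6%), where 18.8% of all gated UMIs lay in these barcodes. Without Smad4fl/fl 3 it was 93.7% for the lower and 89.9% for the higher genes. Of the 54 genes, 49 were also among the 174 (90.7% of the first list and 28.2% of the second). Without the 168 barcodes edgeR called 0 of 7687 genes (0.0%; 386 at an unadjusted p under 0.05), DESeq2 called 0 (340 at an unadjusted p under 0.05), and edgeR called 0 with any 1 library left out as well. The groups did not overlap in 640 of the 8823 genes (7.25%), 185 higher (2.1%) and 455 lower (5.16%) in Smad4iko. Without the 168 barcodes they did not overlap in 491 of 7687 genes (6.39%), 134 higher and 357 lower. The gene values that follow are therefore given as levels, none of which passed the adjusted edgeR test with all libraries. Some of these genes were among the DESeq2 calls with all members, such as Ifi206 and Cd40lg (DESeq2, adjusted p = 0.0041 and 0.022). Without the 168 barcodes these 2 did not pass (DESeq2, adjusted p = 0.080 and 0.171).

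Within the TGF-beta pathway, 4 of 24 tested genes (of 29 listed) lay lower in every Smad4iko library than in any Smad4fl/fl library, against 5.16% of all genes, and 0 lay higher, against 2.1%. Smad4 is 1 of the 4 and, as the floxed gene itself, adds nothing to the count. The others were Smad7, Skil and Acvr2a. Smad7, the inhibitory SMAD that the pathway itself induces, was at 559, 529 and 471 CPM in Smad4fl/fl 1 to 3 and at 383, 361, 391 and 390 CPM in Smad4iko 1 to 4. The Smad4iko values were tightly grouped and all below the lowest Smad4fl/fl value. The log2 difference was -0.37 (SE 0.12; edgeR, adjusted p = 0.694) and -0.38 without the 168 barcodes. Skil, which encodes the SMAD repressor SnoN, was at 293, 344 and 279 CPM against 258, 274, 244 and 235 CPM (log2 difference -0.20, SE 0.14), with the groups overlapping once those barcodes were removed. Its relative Ski did not separate (175 ± 4.24 CPM, SD, n = 3, against 174 ± 19.5 CPM, SD, n = 4).

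The receptors and receptor SMADs gave mixed values. Tgfbr2, the ligand-binding receptor, was at 215, 188 and 223 CPM against 290, 277, 115 and 147 CPM. Smad4iko 1 and 2 were above and Smad4iko 3 and 4 below all Smad4fl/fl libraries. Pmepa1, a feedback inhibitor of the pathway, had the same arrangement, at 167, 184 and 176 CPM against 196, 241, 70.8 and 51.0 CPM. Smad3 was at 22.8, 21.7 and 23.9 CPM against 23.0, 21.4, 5.01 and 9.57 CPM, low in Smad4iko 3 and 4 alone, and Tgfb1, the ligand, at 88.0 ± 7.75 CPM (SD, n = 3) against 79.9 ± 13.2 CPM (SD, n = 4). The median log2 difference was -0.11 over the pathway list and -0.04 over 20 tested genes known to respond to TGF-beta, of which 3 lay lower without overlap (Smad7, Skil and Swap70), against 5.16% of all genes. Smad7 and Skil stand in both lists. The median over all genes tested was -0.00. Without the 168 barcodes the medians were 0.02 and 0.17. The pathway genes apart were then 2 of the 22 still tested (Smad4 and Smad7). Of 17 responding genes still tested 2 lay lower (Smad7 and Runx1) and 1 higher (Ahr). Over all genes 357 of 7687 then lay lower and 134 higher without overlap.

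By the naming rule, 12 genes in each direction were taken by unadjusted p among genes whose groups did not overlap, none past the adjusted edgeR threshold (adjusted p 0.549 to 0.602). Among the higher ones Ifi206, an interferon-inducible gene of the HIN-200 family, was at 30.2, 42.0 and 34.1 CPM in Smad4fl/fl 1 to 3 and at 58.1, 69.7, 87.1 and 88.7 CPM in Smad4iko 1 to 4. The Smad4iko mean was 75.9 ± 14.6 CPM (SD, n = 4) against 35.4 ± 6.00 CPM (SD, n = 3), with a gap between the groups. The log2 difference was 1.17 (SE 0.22; edgeR, adjusted p = 0.549), 1.28 without the 168 barcodes, 0.90 with the covariate for Smad4iko 3 and 4 and 1.39 in resting-like cells. Cd40lg, the CD40 ligand through which helper T cells license B cells and dendritic cells, was at 8.54, 16.1 and 14.0 CPM against 23.9, 29.3, 48.9 and 114 CPM. All Smad4iko values were above the Smad4fl/fl values, with Smad4iko 4 the highest. The log2 difference of Cd40lg was 2.12 (SE 0.56) here, 2.18 without the 168 barcodes and 3.22 (SE 0.85) in resting-like cells. It was 1.48 without Smad4iko 4 and 1.07 with the covariate for Smad4iko 3 and 4.

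Ifi208, from the same family as Ifi206, was at 23.4, 37.8 and 36.6 CPM against 59.9, 48.3, 52.0 and 59.3 CPM (log2 difference 0.81, SE 0.21). After these values were seen, the neighbouring genes of this family on chromosome 1, from 173350879 to 173942672 in mm10, were read out. All 10 tested genes there (Aim2, Ifi206, Ifi214, Ifi213, Ifi209, Ifi208, Ifi207, Ifi204, Mndal and Ifi203) had a higher mean in Smad4iko, by 0.30 to 1.17 on the log2 scale, and 4 did not overlap (Ifi206, Ifi209, Ifi208 and Mndal), against 2.1% of all genes that lay higher without overlap. Ifi206 and Ifi208 are the genes that prompted this readout, so they add nothing to the count. These genes are near-identical copies in part, so the split of reads between them is uncertain.

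The other higher genes were Cnot3, a subunit of the mRNA deadenylase complex (41.8 to 67.6 CPM in the means), the cell cycle kinase Cdk6 (34.4 to 53.4 CPM), the RNA helicase Ddx21 (111 to 162 CPM), Nmi, an interferon-inducible protein (34.1 to 48.9 CPM), Nme2 (56.1 to 92.1 CPM) and Tmem154 (27.3 to 43.6 CPM). The ribosomal protein genes Rps10 (3138 to 4168 CPM) and Rpl41 (3482 to 5631 CPM), both with many processed copies in the genome, were higher too. Lpl, lipoprotein lipase, was at 34.8 to 104 CPM, with 96.6% of its UMIs in the 168 barcodes with another class's markers. Of the 12 higher genes Lpl was the only one with over 50% of its UMIs there.

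**Figure D5:**
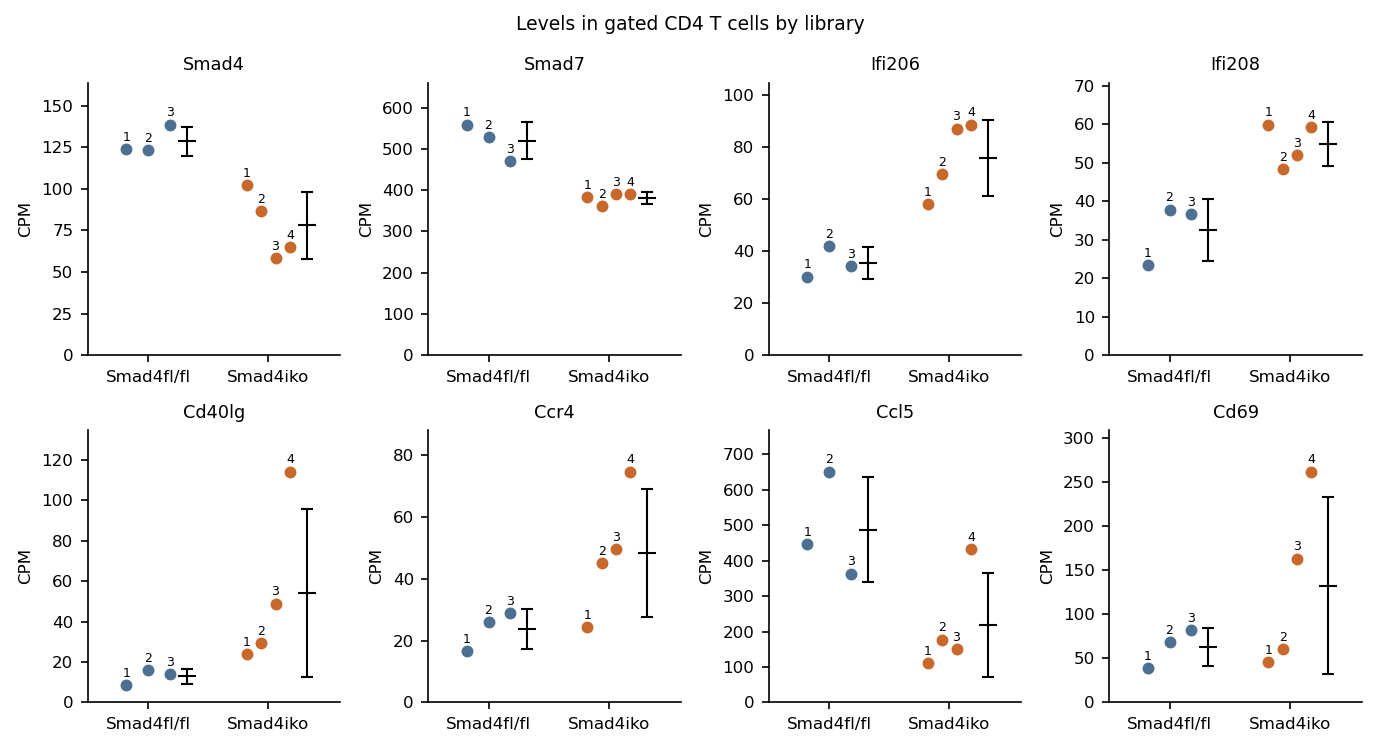
CPM in the gated cells (vertical axes, linear from 0) of 8 selected genes, 1 point per library, with the mean and SD of Smad4fl/fl (n = 3) and Smad4iko (n = 4). Smad4 (128 against 78.0 CPM) and Smad7 (520 against 381 CPM) are lower and Ifi206 (35.4 against 75.9 CPM) and Cd40lg (12.9 against 54.1 CPM) higher in every Smad4iko library, none past the adjusted edgeR test. DESeq2 with all members called Ifi206 and Cd40lg.

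Of the 12 lower genes, Clic4, Emp2, Tmem100, Cldn5, Cavin2, Ehd4, Hspb1 and Adgrf5 had over 50% of their UMIs in the 168 barcodes. Cldn5, a tight junction protein of vessels, is itself one of the endothelial markers. Clic4 was at 157, 82.6 and 57.8 CPM against 27.0, 23.0, 33.2 and 23.6 CPM, and without those barcodes at 13.6 against 9.72 CPM in the means. Its log2 difference moved from -1.79 to -0.41. Ly6c1, a surface protein of T cell subsets and of vessels, moved from -1.07 to -0.05, and the spectrin gene Sptbn1 from -0.99 to -0.36. The lower genes that kept their values were Zbtb38, a methyl-CpG-binding repressor, and in part Pitpnc1, a lipid transfer protein. Zbtb38 was at 131, 90.3 and 113 CPM against 74.8, 74.4, 63.3 and 57.4 CPM, with no overlap (log2 difference -0.65, SE 0.16, and -0.61 without the 168 barcodes). Pitpnc1 was at 180 against 112 CPM in the means (-0.61, and -0.41 without them).

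Of 19 tested Th1 genes (of 22 listed) 14 had a lower and 5 a higher mean in Smad4iko, where 4463 of all 8823 genes had a lower mean. The median log2 difference was -0.42 (-0.43 without the 168 barcodes) against -0.00 over all genes. Lower without overlap were 3 Th1 genes, against 5.16% of all genes. Without the 168 barcodes it was 2 of the 14 still tested (Cxcr3 and Nkg7), against 357 of all 7687 genes. Cxcr3, the chemokine receptor that Th1 cells use to enter inflamed tissue, was at 43.9, 39.2 and 39.9 CPM against 27.0, 34.8, 21.9 and 35.1 CPM. Its groups did not overlap (log2 difference -0.40, SE 0.18). The other 2 with all members were Il12rb2, the signalling chain of the IL-12 receptor (16.0 against 7.86 CPM), and Hopx (94.9 against 59.5 CPM). Ifng was at 9.68, 9.10 and 8.47 CPM against 3.61, 1.58, 11.3 and 31.9 CPM, with Smad4iko on both sides, and Tbx21 at 6.93 against 5.57 CPM. Ccl5, a chemokine of effector and cytotoxic cells, was at 447, 651 and 363 CPM against 111, 177, 151 and 433 CPM. Smad4iko 4 alone reached the Smad4fl/fl range. NK markers were at 240 CPM in that library, at 21.4 to 37.6 CPM in the other Smad4iko libraries and at 19.4, 93.8 and 275 CPM in Smad4fl/fl 1 to 3. Without the 168 barcodes, which held 62.7% of its UMIs, Ccl5 was at 392, 324 and 85.3 CPM against 81.8, 127, 62.6 and 120 CPM. Of 12 tested cytotoxic genes 5 had a higher and 7 a lower mean and 0 separated the groups (median -0.30, and -0.33 without the 168 barcodes), and Nkg7, a granule protein, did so only after removal (66.1 against 34.4 CPM).

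The Th2, Th17 and follicular helper lists separated the groups in 0 of 11 tested genes each. Their median log2 differences were 0.06, 0.33 and 0.19, and 0.12, 0.68 and 0.22 without the 168 barcodes. In that case 10 Th17 genes had a higher and 1 a lower mean, beside 3949 higher and 3738 lower means among all 7687 genes. Ahr lay higher without overlap (8.30 against 16.8 CPM) and Pdcd1, of the follicular helper list, lower. Over all genes 134 then lay higher and 357 lower without overlap. Gata3, the Th2 regulator, was at 60.4 ± 7.06 CPM (SD, n = 3) against 71.4 ± 18.2 CPM (SD, n = 4). Ccr6, the chemokine receptor of Th17 cells, was at 1.14, 8.40 and 4.49 CPM against 9.91, 0.792, 16.9 and 47.2 CPM. Again Smad4iko 3 and 4 were the highest and Smad4iko 2 the lowest of all 7 libraries. Ccr4, a chemokine receptor of Th2 and skin- or lung-homing T cells, was at 16.5, 25.9 and 28.9 CPM against 24.3, 45.1, 49.5 and 74.6 CPM, with 3 of 4 Smad4iko libraries above the Smad4fl/fl range (log2 difference 1.06, SE 0.37). Areg, the tissue-repair factor amphiregulin, was at 45.6, 18.2 and 8.47 CPM against 57.7, 13.5, 15.03 and 81.6 CPM and overlapped widely. Il4 was at 8.65 against 8.09 CPM in the means. Of 14 tested cytokines and chemokines only Mif separated the groups, where 2.1% of all genes lay higher without overlap. Mif was at 202 ± 10.3 CPM (SD, n = 3) against 243 ± 2.65 CPM (SD, n = 4), and it overlapped without the 168 barcodes.

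Among 20 recirculation genes 15 had lower means in Smad4iko, beside 4463 of all 8823 genes, with a median of -0.12 with and without the 168 barcodes. Lower without overlap were 3 of them, against 5.16% of all genes, and 2 without those barcodes (Il7r and Dapl1), against 357 of all 7687 genes. Il7r, the IL-7 receptor that keeps naive and memory cells alive, was at 1234 ± 167 CPM (SD, n = 3) against 894 ± 174 CPM (SD, n = 4), a log2 difference of -0.40 (SE 0.17). Dapl1, a gene of naive and central memory T cells, was at 59.2, 141 and 91.5 CPM against 40.1, 57.8, 54.5 and 44.6 CPM, and Ly6c1 was the third. Klf2, a transcription factor that drives S1pr1, was at 576, 691 and 801 CPM against 529, 580, 333 and 504 CPM and overlapped at 1 library. Residency genes had a median of 0.39 over 23 tested genes (0.42 without the 168 barcodes), and none separated the groups. Cd69, which holds T cells in tissue, was at 38.7, 68.6 and 81.8 CPM against 45.5, 60.2, 163 and 262 CPM, and S100a4 at 373, 569 and 375 CPM against 457, 270, 886 and 1289 CPM. For both, only Smad4iko 3 and 4 exceeded the Smad4fl/fl range, the same libraries that held more cells with a high gate sum.

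Of 20 tested costimulation genes Cd40lg lay higher and Tnfrsf9 and Il2rb lower without overlap (median -0.04). Over all genes 2.1% lay higher and 5.16% lower without overlap, the shares to set beside each list of this paragraph. Without the 168 barcodes 134 of 7687 genes lay higher and 357 lower. Tnfrsf9, the receptor 4-1BB, was at 46.7, 25.9 and 16.7 CPM against 14.4, 15.05, 11.3 and 5.74 CPM, with all Smad4iko values below. Of 16 tested checkpoint genes Nt5e, the ectoenzyme CD73 (72.9 against 49.0 CPM), and Socs3 (120 against 78.2 CPM) lay lower. The median of this list was -0.10, and 0.22 without the 168 barcodes. Pdcd1, which encodes PD-1, was at 34.2, 34.3 and 20.9 CPM against 20.7, 17.4, 9.39 and 21.7 CPM and overlapped by 1 library. Without the 168 barcodes Pdcd1 separated (35.4 against 18.7 CPM) and Socs3 did not. T cell receptor signalling genes had a median of 0.02, with Myc higher and Cd247 lower without overlap. Without the 168 barcodes 0 of the 21 still tested lay higher and 2 lower. Chemokine receptors (15 tested) and integrins (15 tested) had medians of 0.13 and -0.13, which turned to -0.02 and 0.16 without the 168 barcodes, with Cxcr3 and Icam2, an adhesion ligand of lymphocytes and vessels, lower without overlap. Icam2 overlapped without the 168 barcodes.

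Immediate early genes, which respond within minutes to stimulation and to tissue dissociation, had 16 of 25 higher means and a median of 0.10, and 20 of 25 and 0.34 without the 168 barcodes. Over all genes 4360 of 8823 had a higher mean, and 3949 of 7687 without those barcodes. Junb was at 817, 825 and 1094 CPM against 567, 673, 1960 and 1988 CPM, and Nr4a1, a reporter of T cell receptor signalling, at 122, 122 and 124 CPM against 99.6, 131, 282 and 404 CPM. The high values were in Smad4iko 3 and 4 alone. Btg2, an antiproliferative gene of the same list, separated the other way, at 844, 584 and 897 CPM against 536, 506, 432 and 529 CPM (log2 difference -0.56, SE 0.15). Of 15 heat shock genes Dnajb1 lay higher (69.8 against 106 CPM), beside 2.1% of all genes, and Hspb1 and Hsp90b1 lower, beside 5.16% (median -0.15). Without the 168 barcodes that median was 0.08 and Dnajb1 overlapped.

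Interferon-stimulated genes had 27 of 39 higher means, beside 4360 of all 8823 genes, and a median of 0.29 (0.33 without the 168 barcodes). Higher without overlap were 4 of them, Isg20, Ifi209, Ifi206 and Trim30a, against 2.1% of all genes, and lower 1, Ly6e, against 5.16%. Ifi206 and Ifi209 are of the chromosome 1 family given above, so they are not separate from that readout. Trim30a was at 46.1, 55.3 and 47.4 CPM against 60.4, 75.2, 67.6 and 66.3 CPM (log2 difference 0.51, SE 0.16), with the groups apart. Oxidative phosphorylation genes had 23 of 26 higher means, beside 4360 of all 8823 genes, with small differences, from -0.08 to 0.36 (median 0.15), and 0 separated. Glycolysis genes had a median of 0.15 with Slc16a3 higher, apoptosis genes (19 tested) -0.11, and 17 cell cycle genes 0.41, which was 0.05 without the 168 barcodes, with 0 separated. Without those barcodes 1 oxidative phosphorylation gene lay higher without overlap, against 134 of all 7687 genes, and 0 of the glycolysis genes still tested separated.

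Whether the genotype difference was not alike in gated and resting-like cells was tested within libraries. The limma test called 0 of 7321 genes (0.0%; 234 at an unadjusted p under 0.05). In resting-like cells alone edgeR called 0 of 7333 genes (0.0%; 326 at an unadjusted p under 0.05). Leaving out Smad4fl/fl 1 gave calls for the haemoglobin genes Hbb-bs and Hba-a1, and leaving out Smad4fl/fl 2 for Ifitm3, an interferon-induced membrane protein. The differences for Ifi206 (-0.06, SE 0.24), Zbtb38 (0.12, SE 0.16) and Smad7 (-0.05, SE 0.10) were within 1 standard error of 0 (limma, adjusted p = 0.992 each). That of Cd40lg was farther from 0, at -0.57 (SE 0.34, limma, adjusted p = 0.992).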

How the data were processed

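Lung cells of 7 mice were measured by droplet-based 3' single-cell RNA sequencing, 1 library per mouse. The authors deposited raw UMI counts per gene and barcode, written by Cell Ranger 6.1.1 per the file headers. The submitters' processing notes also name fastp, UMI-tools and mm10, with no versions of the tools. Of 31253 gene IDs, 31107 matched GENCODE M21 by ID, which gave coordinates. The members and gene lists were chosen with earlier results of these data known.

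Barcodes were filtered and gated by the stated rule in Python 3.11.15 with scanpy 1.11.5, and doublets were marked with Scrublet (expected 6%) but kept. Members without markers of another class were clustered with leidenalg 0.10.2 (15 components, resolution 0.3). Counts were summed per library, so the mouse is the replicate, and tested with edgeR 4.0.16 (filterByExpr, TMM, quasi-likelihood test) in R 4.3.3, Benjamini-Hochberg adjustment and a threshold of 0.05. The difference from resting-like cells used limma 3.58.1 on log2 CPM (prior count 2). DESeq2 1.42.0 was the other tool. Shares were tested by 2-sided exact permutation over 35 splits (scipy 1.17.1), which cannot give a p under 0.05 here. The labels give each library as its own mouse sample, and p-values measure the spread between these samples. The fits were tested on simulated data. Some genes, and 2 of 6 programme shares that use them, are not reported here.

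Text names Smad4, genes of the rule, genes of 22 lists at a mean of at least 20 CPM or with a known role as regulator or cytokine, up to 12 genes per direction of the genotype test, and the leading 20 genes per direction against resting-like cells. A few list genes under 20 CPM are named because their groups did not overlap, after their values were seen. The alternatives were other normalization, filters, gates, doublet removal, thinning, covariates for sex or for Smad4iko 3 and 4, genes near Rosa26 left out, a block, and leaving out each library. Removal of the 168 barcodes and the subsets by gate sum (2 to 4, and at least 5) were added after seeing the data. The libraries were checked for copies, and none was one. Cells under 1500 UMIs (3 members) were left out of thinned shares. By Xist and Ddx3y, 2 mice (Smad4fl/fl 3 and Smad4iko 3) read as female and 5 as male.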

Additional observations from a re-analysis of the deposited data

Results flagged for a closer look

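Of 41 values checked in the 4 Smad4iko libraries, 1 had a library far from the other 3, and chance flags about 1 in 20 groups. The NK cell markers summed to 240 CPM in Smad4iko 4, with the lowest at 21.4 CPM, and without the 168 barcodes that carried markers of another class they ranged from 9.46 to 29.4 CPM over all 7 libraries.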

How the results depend on the processing

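The count of genes called between genotypes was 0 with edgeR under all alternatives other than DESeq2 (54) and leaving out single libraries, which gave 0 to 174. With no filter on low counts the smallest adjusted p was 0.0546. The difference between gated and resting-like cells gave 0 to 2 calls when single libraries were left out and 0 under its other alternatives. The difference in the share of conventional CD4 T cells ran from -5.48 to 2.30 points over the libraries left out, and was 0.698 without Smad4iko 3 and 4, 1.12 with a gate of at least 3 and 2.34 after thinning. The share of kept cells ran from -1.51 to 0.327 points. The residency difference turned to -0.858 points without Smad4iko 3 and 4. The follicular helper difference ran from -0.811 to 0.981 points over the libraries left out (-0.0739 and -0.399 without Smad4iko 1 or 2), and turned to -0.216 and -0.275 with a gate of at least 3 or 1. Among named genes without the 168 barcodes, Tmem100 was at 0.31 with DESeq2, and Ly6c1 at 0.44, 0.00696 and 0.0938 without Smad4fl/fl 3, Smad4iko 2 or Smad4iko 4. The cause was not tested. The correlations of same-numbered libraries (0.21, -0.087 and 0.036) gave no clear sign that the replicate numbers pair the mice. Libraries of unlike number ran from -0.29 to 0.21. Whether the mice were paired cannot be settled by these values. With the replicate block edgeR called 0 genes, limma 0, and the shares differed by -0.423 points (exact p = 1) and -0.871 points (exact p = 0.75). Each library held 182 to 466 gated cells.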
